A study of Mus musculus with 13 samples.

Results

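Imprinted genes were followed in mouse embryonic stem (ES) cells exposed to PhenDC3. The members were 40 gene symbols of the main mouse imprinted domains, looked up in the table of RNA-seq read counts, which lists 24079 genes. All 40 symbols were found, and 37 were kept because their counts over the 6 RNA samples summed to at least 30. The 3 left out were the paternally expressed Rtl1, Airn and Snrpn. Of the 37, Dlk1 and Zim1 were too low for the test, so 35 were tested, of which 14 are known as maternally expressed and 20 as paternally expressed. Zfp57, the remaining one, is known as a zinc finger protein that protects imprints in ES cells rather than as an imprinted gene. The files hold no allele information, so the parental origin of the reads is not given, and each value is the sum of both alleles.

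CGR8 is a mouse ES cell line grown without feeder cells on gelatin with serum and LIF, the cytokine that keeps these cells undifferentiated. PhenDC3 is a small molecule that binds and stabilizes G-quadruplexes (G4), four-stranded DNA structures formed by guanine-rich sequence. Control cells received 0.5% DMSO, the solvent, for 48 h, and treated cells received 10 μM PhenDC3 in 0.5% DMSO for 48 h. RNA-seq covered 3 control and 3 PhenDC3 samples, and replication origins were mapped in 3 control and 2 PhenDC3 samples by sequencing short nascent strands (SNS-seq), the small DNA pieces made where replication starts.

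Genomic imprinting is the expression of a gene from only the maternal or only the paternal chromosome. At most imprinted domains it rests on DNA methylation laid down in the egg or the sperm at imprinting control regions, which ZFP57 and its partners maintain after fertilization. Many imprinted genes act on growth of the embryo and the placenta: paternally expressed genes such as Igf2 tend to promote growth, and maternally expressed genes such as Grb10, Cdkn1c and Phlda2 tend to restrain it.

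Total counts ranged from 22232014 to 29486502 per RNA sample, and no pair of samples of the same condition was near identical. Levels are given as counts scaled to the normalized library size (CPM), and a gene was called when its Benjamini-Hochberg adjusted p in edgeR's quasi-likelihood test was at most 0.05. Nothing in the sources used here says that the RNA samples came from separate cultures, so the p-values measure the spread between these samples. Of 13972 genes tested, 2518 were higher and 2617 lower with PhenDC3. Scaling by library size alone gave 3583 higher and 1688 lower and moved the median log2 fold change of all genes from 0.01 to 0.16. Cell type markers moved too. Summed over 10 naive ES cell markers, levels were 6593 to 7037 CPM in the controls and 8858 to 9929 CPM with PhenDC3, with 6 markers higher and 1 lower. The lower marker was Pou5f1, with a mean of 1486 CPM in the controls and 1091 CPM with PhenDC3. Dppa5a, the most abundant, went from 2282 to 3359 CPM. Sums were 282 to 352 and 488 to 618 CPM for 8 primitive endoderm markers (6 higher), and 83.8 to 113 and 180 to 238 CPM for 8 trophoblast markers (4 of 7 tested higher). Lama1 was the largest part of the endoderm sum, with means of 222 and 442 CPM. The trophoblast markers tested and not called were Hand1, Eomes and Cdx2, with log2 fold changes of 0.60, -0.47 and -0.07. Ranges of the 2 conditions overlapped for 8 mesoderm markers (2.77 to 4.47 and 3.64 to 4.32 CPM), 8 neuroectoderm markers (99.3 to 107 and 103 to 125 CPM) and 8 fibroblast markers (7.30 to 9.16 and 5.90 to 10.0 CPM, with Dcn and Lum at 0). Within those sums no mesoderm marker was called, while Nes rose by 1.24 and Pax6 fell by 1.88 on the log2 scale among 6 neuroectoderm markers tested, and Fbn1 rose by 0.85 and Thy1 fell by 1.31 among 4 fibroblast markers tested. The part of these markers' cells in the results for imprinted genes was not tested.

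Among the 35 members tested, Zfp57 included, 6 rose with PhenDC3 and 6 fell. Plagl1, Igf2, H19, Zfp57, Cd81 and Zrsr1 rose, and Nnat, Phlda2, Mest, Cdkn1c, Grb10 and Peg10 fell. The 6 that rose were 17.1% of those tested, against 18.0% of all genes, and the 6 that fell were 17.1%, against 18.7%. In either direction 34.3% of the members were called, against 36.8% of all genes, so the share called was close to the background in this fit, which ignored any pairing. A fit that blocked on replicate number called more of all genes, 3797 higher and 3692 lower. The samples of the 2 conditions did not overlap for 14 of the 35 genes, or 40%, against 50.6% of all genes tested. The median log2 fold change was 0.04 over the 35 genes and 0.01 over all genes. Without Zfp57, both directions occurred in each parental class the genes are known for. Of 14 genes known as maternally expressed, 2 rose and 3 fell, and of 20 known as paternally expressed, 3 rose and 3 fell. Alleles were not measured, so whether these classes hold in these ES cells was not tested. The counts by class therefore do not describe maternal or paternal RNA. Under library size scaling alone, 8 of the 35 members were higher and 4 lower. In bulk RNA, fewer cells of a type and less RNA per cell cannot be told apart.

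**Figure D1:**
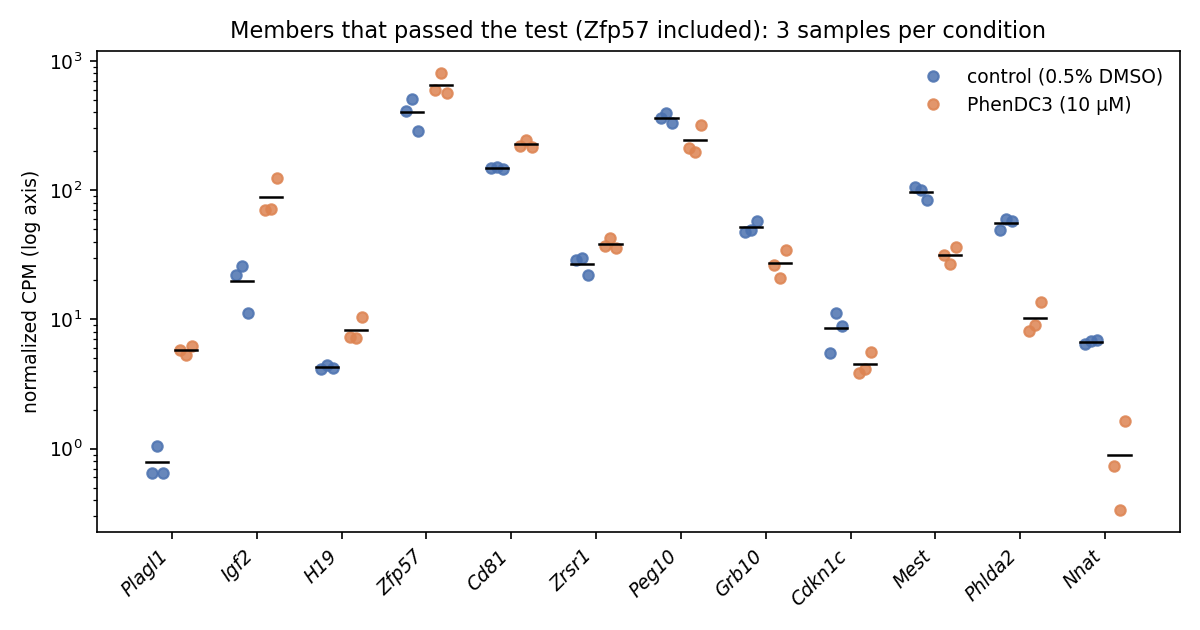
Normalized CPM on a log axis for the 12 members that passed the test, Zfp57 included, with a point for each of 3 control and 3 PhenDC3 samples and a bar at each mean. The conditions are fully separated for 11 of the 12 genes, and the Cdkn1c samples overlap.

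The sequence just around the start is shown for 5 of the genes with the largest changes, because the ligand binds G-rich DNA and ZFP57 is known to recognize the methylated hexamer TGCCGC. Windows run from 250 bases before to 50 bases after a RefSeq start (GRCm38.p6), 5′ to 3′ on the gene's strand. In Plagl1 (chr10:13090582-13090881, plus strand), Mest (chr6:30737800-30738099, plus strand) and Nnat (chr2:157559828-157560127, plus strand), capitals mark TGCCGC, which lies there on the opposite strand and so reads GCGGCA.

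Plagl1: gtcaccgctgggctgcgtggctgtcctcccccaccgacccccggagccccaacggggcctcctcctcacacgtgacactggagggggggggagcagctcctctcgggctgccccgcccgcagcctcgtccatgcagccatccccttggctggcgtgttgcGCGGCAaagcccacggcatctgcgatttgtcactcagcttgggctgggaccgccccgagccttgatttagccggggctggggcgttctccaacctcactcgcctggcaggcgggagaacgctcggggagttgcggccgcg
Mest: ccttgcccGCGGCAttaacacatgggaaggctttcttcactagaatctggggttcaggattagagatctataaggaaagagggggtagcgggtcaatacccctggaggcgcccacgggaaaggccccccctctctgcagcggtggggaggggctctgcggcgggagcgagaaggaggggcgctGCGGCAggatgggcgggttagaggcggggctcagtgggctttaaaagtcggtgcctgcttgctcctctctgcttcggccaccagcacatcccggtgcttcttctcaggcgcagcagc
Nnat: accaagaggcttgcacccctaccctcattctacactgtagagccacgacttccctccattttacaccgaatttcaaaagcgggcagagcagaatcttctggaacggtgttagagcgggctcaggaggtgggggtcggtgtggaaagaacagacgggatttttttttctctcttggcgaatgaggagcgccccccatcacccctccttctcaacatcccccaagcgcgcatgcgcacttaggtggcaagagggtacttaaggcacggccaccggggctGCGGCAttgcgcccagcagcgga

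In Phlda2 (chr7:143502475-143502774, minus strand) and Igf2 (chr7:142657447-142657746, minus strand), capitals mark a G4 pattern, set as at least 4 runs of at least 3 G with at most 7 bases between runs.

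Phlda2: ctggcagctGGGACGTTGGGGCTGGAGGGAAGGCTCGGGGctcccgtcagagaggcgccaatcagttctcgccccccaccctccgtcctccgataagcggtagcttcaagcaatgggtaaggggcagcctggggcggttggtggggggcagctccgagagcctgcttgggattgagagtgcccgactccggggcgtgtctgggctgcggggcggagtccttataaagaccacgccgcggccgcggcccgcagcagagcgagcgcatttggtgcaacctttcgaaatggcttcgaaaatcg
Igf2: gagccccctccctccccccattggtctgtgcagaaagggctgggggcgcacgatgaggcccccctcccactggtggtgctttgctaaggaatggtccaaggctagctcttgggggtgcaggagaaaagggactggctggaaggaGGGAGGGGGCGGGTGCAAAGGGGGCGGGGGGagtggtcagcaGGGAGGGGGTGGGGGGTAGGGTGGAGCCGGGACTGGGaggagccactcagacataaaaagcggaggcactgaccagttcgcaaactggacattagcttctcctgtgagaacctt

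Igf2 has 4 such windows and Mest 3, of which 1 each is shown. Another Igf2 window holds TGCCGC and another the G4 pattern on the opposite strand, and another Mest window holds the G4 pattern, so the letters shown do not sort these genes into classes. The RefSeq table held 45 such windows for 31 of the 37 genes. TGCCGC was present on either strand in 10 of the 45, or 22.2%, against 11.6% of all 32851 promoter windows. The G4 pattern was present on either strand in 15, or 33.3%, against 18.6% of all windows. The median GC content was 58.3% in the imprinted genes and 52.7% in all windows, and windows of the same gene can overlap, so these shares are descriptions.

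The H19/Igf2 domain on chromosome 7 had both of its members higher. Igf2 (Entrez 16002) encodes insulin-like growth factor 2, a paternally expressed growth factor. Its level was 21.97, 25.9 and 11.3 CPM in the controls and 70.7, 71.2 and 125 CPM with PhenDC3. Every PhenDC3 sample was above every control. Igf2 rose by 2.17 ± 0.32 (SE, n = 3 and 3) on the log2 scale, or 4.51-fold, with an edgeR adjusted p of 0.0012. That call was lost in a fit that blocked on replicate number (edgeR adjusted p = 0.0886). H19 (Entrez 14955), the maternally expressed long non-coding RNA next to Igf2, was at 4.13, 4.42 and 4.24 CPM in the controls and at 7.28, 7.19 and 10.5 CPM with PhenDC3. The controls lay close together, and all treated samples were higher. H19 rose by 0.96 ± 0.20 (SE) on the log2 scale, with an edgeR adjusted p of 0.0055. Igf2r, the receptor that removes IGF2 and is maternally expressed from its own domain on chromosome 17, stood at 121, 93.5 and 119 CPM in the controls and 121, 102 and 132 CPM with PhenDC3. Its groups overlapped, and its log2 fold change was 0.08 ± 0.14 (SE), edgeR adjusted p = 0.676. Airn, the paternal non-coding RNA that silences the paternal Igf2r copy in differentiated cells, had at most 6 counts in any sample.

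The Kcnq1ot1 domain, also on chromosome 7, held genes that moved in opposite directions. Phlda2 (Entrez 22113), a maternally expressed gene that limits placental growth, stood at 48.7, 59.5 and 57.5 CPM in the controls and at 8.19, 9.07 and 13.7 CPM with PhenDC3. The lowest control was far above the highest treated sample. Phlda2 had a log2 fold change of -2.42 ± 0.20 (SE), a 5.36-fold fall, with an edgeR adjusted p of 8.86e-05. Cdkn1c (Entrez 12577), which encodes the cell cycle inhibitor p57, was at 5.54, 11.2 and 8.91 CPM in the controls and 3.82, 4.10 and 5.59 CPM with PhenDC3. The highest treated sample and the lowest control overlapped. Its log2 fold change was -0.92 ± 0.27 (SE), with an edgeR adjusted p of 0.0273. That call was lost without control replicate 2 (adjusted p = 0.0791), PhenDC3 replicate 1 (0.102) or PhenDC3 replicate 2 (0.0691), and with library size scaling alone (0.0564).

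Cd81 (Entrez 12520), a tetraspanin of the cell surface at the edge of the same domain, rose. Its controls were at 149, 152 and 147 CPM and its PhenDC3 samples at 221, 243 and 214 CPM. The spread within each condition was small beside the step between them. Cd81 rose by 0.60 ± 0.10 (SE) on the log2 scale, or 1.51-fold, with an edgeR adjusted p of 0.00248. The domain's other 4 tested members were not called. Kcnq1ot1 itself, the paternal non-coding RNA that silences the neighbouring genes in cis, was at 172, 236 and 121 CPM in the controls and 180, 243 and 198 CPM with PhenDC3. Its groups overlapped, and its log2 fold change was 0.23 ± 0.23 (SE), edgeR adjusted p = 0.452. Slc22a18, a membrane transporter, had a log2 fold change of -0.83 ± 0.30 (SE) and an edgeR adjusted p of 0.0587, which passed without control replicate 3 (0.0139). The trophoblast transcription factor Ascl2 had -0.61 and Tssc4 -0.00 on the log2 scale.

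**Figure D2:**
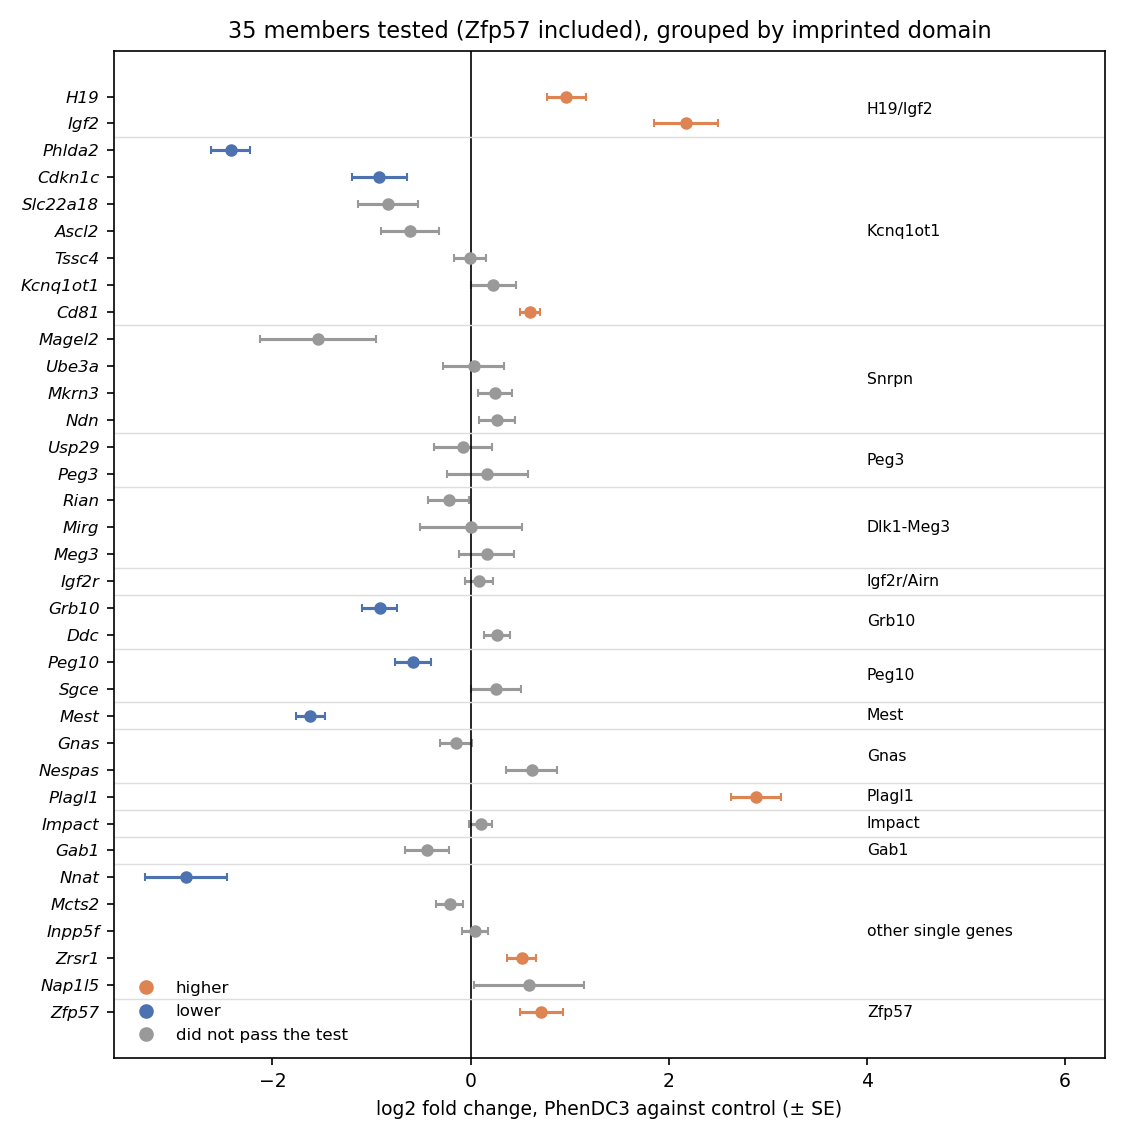
Log2 fold change of PhenDC3 against control (± SE, 3 samples each) for the 35 members tested, Zfp57 included, grouped by domain, with genes that rose in orange, genes that fell in blue and the rest in grey. Values run from -2.88 for Nnat to 2.88 for Plagl1, and the Kcnq1ot1 domain holds genes on both sides of 0.

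Plagl1 and Mest lie in domains of their own. Plagl1 (Entrez 22634, chr10:13090832-13131694), a paternally expressed zinc finger transcription factor, was scarce in the controls at 0.652, 1.05 and 0.649 CPM and was at 5.79, 5.27 and 6.21 CPM with PhenDC3. The treated samples were close to each other and all were above the controls. Plagl1 rose by 2.88 ± 0.25 (SE) on the log2 scale, or 7.38-fold, with an edgeR adjusted p of 1.12e-04. Mest (Entrez 17294, chr6:30733506-30748466), a paternally expressed gene of the hydrolase fold family active in mesoderm, was at 106, 100 and 83.2 CPM in the controls and 31.4, 26.6 and 36.1 CPM with PhenDC3. No treated sample reached the lowest control. Mest had a log2 fold change of -1.62 ± 0.15 (SE), a 3.07-fold fall, with an edgeR adjusted p of 1.36e-04. Of the exon bases of Mest, 32.9% overlap Copg2 on the other strand. Copg2 had a log2 fold change of 0.15, and it was not called.

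Nnat, Zrsr1, Mcts2 and Nap1l5 are paternally expressed genes that lie in introns of the host genes Blcap, Commd1, H13 and Herc3. Nnat (Entrez 18111, chr2:157560078-157562525), which encodes a small membrane protein of developing neurons, was at 6.44, 6.75 and 6.96 CPM in the controls and 0.728, 0.335 and 1.63 CPM with PhenDC3. The controls were nearly equal, while the treated samples were few in reads and spread widely relative to their mean. Nnat had a log2 fold change of -2.88 ± 0.41 (SE), a 7.34-fold fall, with an edgeR adjusted p of 0.00103. Zrsr1 (Entrez 22183), a splicing factor gene, was at 28.6, 30.04 and 21.9 CPM in the controls and 37.2, 42.6 and 35.4 CPM with PhenDC3. Its conditions were separate but close. Zrsr1 rose by 0.51 ± 0.15 (SE) on the log2 scale, with an edgeR adjusted p of 0.0234, and the call was lost without PhenDC3 replicate 1 (0.0639) or PhenDC3 replicate 2 (0.0751). Its host Commd1 fell by 0.64 ± 0.11 (SE), edgeR adjusted p = 0.00259, and the difference between the 2 genes was not tested. Zrsr1 and Mcts2 are known as retrogenes, and reads shared with their parent copies were not measured here, so their counts are uncertain. Mcts2 had a log2 fold change of -0.21 and was not called, while its host H13 fell by 0.47. Blcap had a log2 fold change of 0.14 and Herc3 0.22, neither called. Inpp5f had 0.04 and Nap1l5, with at most 20 counts in a sample, had 0.59, neither of them called.

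Grb10 and Peg10 lie in separate domains, and both fell. Grb10 (Entrez 14783), an adaptor protein that dampens insulin and IGF receptor signalling, was at 47.8, 49.3 and 57.4 CPM in the controls and 26.4, 21.1 and 34.3 CPM with PhenDC3. All treated samples were below all controls. Grb10 had a log2 fold change of -0.92 ± 0.18 (SE), with an edgeR adjusted p of 0.00403. Its neighbour Ddc, the enzyme that makes dopamine and serotonin, had a log2 fold change of 0.27 and was not called. Peg10 (Entrez 170676), a retrotransposon-derived gene needed for the placenta, was at 359, 395 and 333 CPM in the controls and 211, 198 and 319 CPM with PhenDC3. PhenDC3 replicate 3 lay just under the lowest control. Peg10 had a log2 fold change of -0.58 ± 0.18 (SE), with an edgeR adjusted p of 0.0343. That call was lost without control replicate 1 (0.0860), control replicate 2 (0.0752), PhenDC3 replicate 1 (0.132) or PhenDC3 replicate 2 (0.0988), and with library size scaling alone (0.0884). Sgce, which starts beside Peg10 on the other strand, had a log2 fold change of 0.26 ± 0.25 (SE), and the difference between the neighbours was not tested.

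Of the 40 symbols, none of those tested in the Dlk1-Meg3, Peg3 and Snrpn domains was called, while 36.8% of all genes tested were. Dlk1, Rtl1, Zim1 and Snrpn of these domains were not tested, so they could not be called. The genes tested there were few, and no claim about the domains is drawn. In the Dlk1-Meg3 domain on chromosome 12, the maternal non-coding RNA Meg3 was at 6.08, 11.0 and 7.44 CPM in the controls and 6.31, 9.03 and 12.02 CPM with PhenDC3. Rian, which hosts small nucleolar RNAs, was at 12.5, 10.9 and 9.56 CPM in the controls and 7.46, 8.78 and 12.1 CPM with PhenDC3. Both overlapped between conditions, with log2 fold changes of 0.16 and -0.22. Dlk1, the paternally expressed Notch-like ligand of this domain, had 4, 12 and 16 counts in the controls and 5, 1 and 3 with PhenDC3, too few to test. In the Peg3 domain, the zinc finger gene Peg3 was at 20.9, 16.3 and 47.7 CPM in the controls and 27.8, 20.8 and 46.6 CPM with PhenDC3. Replicate 3 was the highest of each condition, and the log2 fold change was 0.17 ± 0.41 (SE).

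In the Snrpn domain, Snrpn, a splicing gene of the Prader-Willi region, was listed at 0 in all 6 samples. Its overlapping partner Snurf was also listed at 0, and 72.3% of the exon bases of Snrpn are shared on the same strand with Snurf or Snhg14. How the counting treated reads in shared exons is not given in the sources used here, so these 0 values do not show absent RNA. Ube3a, the ubiquitin ligase gene of the domain, was at 63.9, 41.9 and 87.1 CPM in the controls and 59.9, 43.3 and 93.6 CPM with PhenDC3. It was highest in replicate 3 of each condition, and its log2 fold change was 0.03 ± 0.31 (SE). Magel2 had 13, 16 and 18 counts in the controls and 13, 2 and 3 with PhenDC3. Its log2 fold change was -1.54 ± 0.59 (SE), edgeR adjusted p = 0.0674, which passed without PhenDC3 replicate 1 (0.0176). Ndn and Mkrn3 had log2 fold changes of 0.27 and 0.25 and were not called.

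Further uncalled genes included some of the most abundant. Gnas, which encodes the stimulatory G protein alpha subunit and has several promoters that these counts do not separate, was at 96.6, 128 and 103 CPM in the controls and 98.2, 117 and 80.9 CPM with PhenDC3. Nespas, the antisense RNA of that locus, had a log2 fold change of 0.61 ± 0.25 (SE) and an edgeR adjusted p of 0.0867, with separate conditions. The strand setting of the counting is not given in the sources used here, so where genes overlap, reads of the opposite strands may not be told apart. Such overlaps include Nespas with Gnas, Kcnq1ot1 with Kcnq1, Mest with Copg2, Zrsr1 with Commd1, Peg3 with Peg3os and Usp29 with Zim3. Impact, a regulator of translation under stress, was at 227, 201 and 194 CPM in the controls and 219, 207 and 243 CPM with PhenDC3. Gab1, a docking protein of growth factor receptors, had a log2 fold change of -0.44 ± 0.22 (SE), edgeR adjusted p = 0.147.

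Zfp57 (Entrez 22715) was at 412, 504 and 285 CPM in the controls and 591, 811 and 565 CPM with PhenDC3. The conditions were separate, with a wide spread in each. Zfp57 rose by 0.71 ± 0.22 (SE) on the log2 scale, with an edgeR adjusted p of 0.0299. The call was lost without control replicate 1 (0.0838), control replicate 3 (0.0522), PhenDC3 replicate 1 (0.0541) or PhenDC3 replicate 2 (0.0861). Scaled to the length of RefSeq exons (RPKM), Zfp57 had the highest control level of the 40 genes at 124 ± 34.2 (SD, n = 3), followed by Cd81 at 98.3 ± 1.55 and Phlda2 at 75.0 ± 7.79. The first pair did not differ beyond its spread. Gab1, Peg10 and Impact came next at 55.4 ± 15.2, 54.4 ± 4.62 and 54.1 ± 4.60 RPKM, and these did not differ beyond their spread either. With PhenDC3, Phlda2 stood at 14.0 ± 3.98 RPKM and Igf2 moved from 4.36 ± 1.67 to 19.7 ± 6.92 RPKM.

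A second list held 44 further genes described as imprinted in mouse, of which 42 were in the table and 29 tested. Of these, 6 rose and 7 fell, or 44.8% called against 36.8% of all genes, and the count fell from 13 to 8 without PhenDC3 replicate 1. The list was chosen with earlier results of these data known, so its share is a description and no evidence of an excess. The median log2 fold change was -0.12. Dio3, which inactivates thyroid hormone and lies at the end of the Dlk1-Meg3 domain, rose by 1.89 ± 0.26 (SE) on the log2 scale. Phactr2 rose by 1.29, the AMP deaminase gene Ampd3 by 1.08, the lipid transfer gene Osbpl5 by 1.00 and the Polycomb gene Sfmbt2 by 0.90. The Osbpl5 call was lost without PhenDC3 replicate 1 (edgeR adjusted p = 0.0514). Atp10a, a phospholipid flippase gene, fell by 2.09, Dhcr7, the last enzyme of cholesterol synthesis, by 1.57 and Ppp1r9a by 1.13 on the same scale.

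Genes that set, keep or erase imprints formed a list of 27, with 26 tested. Of these, 5 rose and 7 fell, or 46.2% called against 36.8% of all genes, with a median log2 fold change of 0.05. This list too was chosen with earlier results of these data known, so its share is no evidence of an excess. The de novo methyltransferase genes and their cofactor all fell: Dnmt3b by 1.80 ± 0.22 (SE), Dnmt3a by 1.57 ± 0.19 and Dnmt3l by 1.55 ± 0.15 on the log2 scale. Mean levels went from 437 to 125 CPM for Dnmt3b, from 166 to 55.8 CPM for Dnmt3a and from 526 to 180 CPM for Dnmt3l. Uhrf1, which brings the maintenance methyltransferase to replicated DNA, fell by 0.79 and the histone methyltransferase gene Ehmt2 by 0.80. Dppa3, which protects maternal methylation in the early embryo, rose by 1.46, and the methylcytosine oxidase genes Tet3 and Tet2 rose by 0.88 and 0.66. The maintenance methyltransferase gene Dnmt1 and the ZFP57 partner gene Trim28, named after their values were seen, had log2 fold changes of -0.01 and -0.26 and were not called. The remaining called genes of the list were Zfp445, Arid4b, Mbd3 and Eed, with log2 fold changes of 0.53, 0.40, -0.58 and -0.37. Among these, only Zfp445 stayed called in all 12 alternatives. No methylation was measured in these samples.

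SNS-seq origins were then placed near the starts of the 37 imprinted genes kept. An origin was a region with a peak in at least 2 of 3 control lists or in both PhenDC3 lists, within 2 kb of a curated RefSeq start. Control origins lay near 23 of the 37 genes, or 62.2%, against 59.6% of all genes tested in RNA-seq, and PhenDC3 origins near 14, or 37.8%, against 38.0%. Both kinds were found at 12 genes, control origins alone at 11 and PhenDC3 origins alone at 2. The criteria of the conditions differ, so the lower PhenDC3 count is no comparison of conditions. Without control replicate 1 the control count was 14, and with PhenDC3 replicate 1 alone the PhenDC3 count was 27. List by list, 24, 22 and 17 genes had a peak near a start in the controls and 27 and 19 with PhenDC3, and these ranges overlap.

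**Figure D3:**
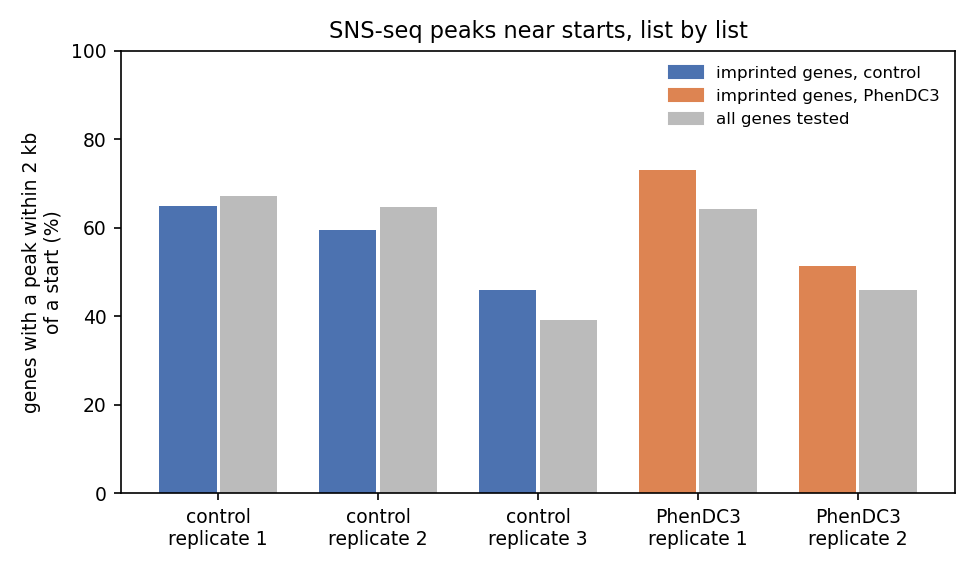
Percent of the 37 imprinted genes (blue for control, orange for PhenDC3) and of all genes tested in RNA-seq (grey) with an SNS-seq peak within 2 kb of a start, for each peak list. The imprinted genes run from 45.9% to 73.0% and all genes from 39.2% to 67.2%.

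The 59 origins near these starts were sorted by where peaks were found. Common origins passed both criteria, new origins passed for PhenDC3 with no control peak, and suppressed origins passed for the controls with no PhenDC3 peak. There were 18 common (30.5%), 5 new (8.47%), 17 suppressed (28.8%) and 19 other origins (32.2%). For all genes tested, 4853 of 16196 origins near starts were common, 5.33% were new, 33.2% suppressed and 31.5% other, so the mix near imprinted genes was close to that of all genes.

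Several of the genes whose RNA changed had origins of more than one class. The H19 gene body held a common origin (chr7:142577066-142578105) with peak fold enrichments of 21.99, 17.95 and 25.9 in the controls and 4.02 and 5.61 with PhenDC3. All control values there were above both PhenDC3 values, which was not particular to H19. An origin in Mirg (chr12:109744112-109744705) had 10.95, 9.43 and 17.6 in the controls and 2.50 and 2.65 with PhenDC3. The origin upstream of H19 (chr7:142578984-142579638) had 7.93, 3.71 and 12.2 in the controls and 6.10 and 6.76 with PhenDC3, which overlap. Igf2 had 4 common origins near its starts and a new origin (chr7:142664745-142665043) at 4.77 and 4.43 with PhenDC3. At Mest, the origin over the printed promoter window (chr6:30737655-30738098) was suppressed, with peaks of 4.68 and 5.02 in control replicates 1 and 2, no peak in control replicate 3 and none with PhenDC3. Mest also had 2 other suppressed origins and a new origin (chr6:30736011-30736379) at 5.92 and 7.35. A common origin (chr6:30735457-30735917) had peaks in all 5 lists, and a further origin had peaks in control replicate 1 and in both PhenDC3 replicates.

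Phlda2 had 4 origins near its start, of which control replicate 1 had a peak at 4, control replicate 2 at 3, control replicate 3 at 2, PhenDC3 replicate 1 at 3 and PhenDC3 replicate 2 at 1, so the conditions overlapped. Igf2r, whose RNA was not called, had both of its start origins suppressed (chr17:12768754-12769198 and chr17:12769543-12770317). Both had peaks in control replicates 1 and 2 only, with none in control replicate 3 or with PhenDC3. Peg3 had a new origin (chr7:6728415-6728544) at 4.95 and 3.66 with PhenDC3 and no other near its start. No origin was found within 2 kb of a start for 12 of the 37 genes, namely Plagl1, Kcnq1ot1, Slc22a18, Rian, Mirg, Usp29, Zim1, Ndn, Magel2, Ddc, Mcts2 and Impact. Fold enrichment was computed by the authors against an RNase-treated library of each condition, so levels set across conditions also carry that background, and no test was made on these values.

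**Figure D4:**
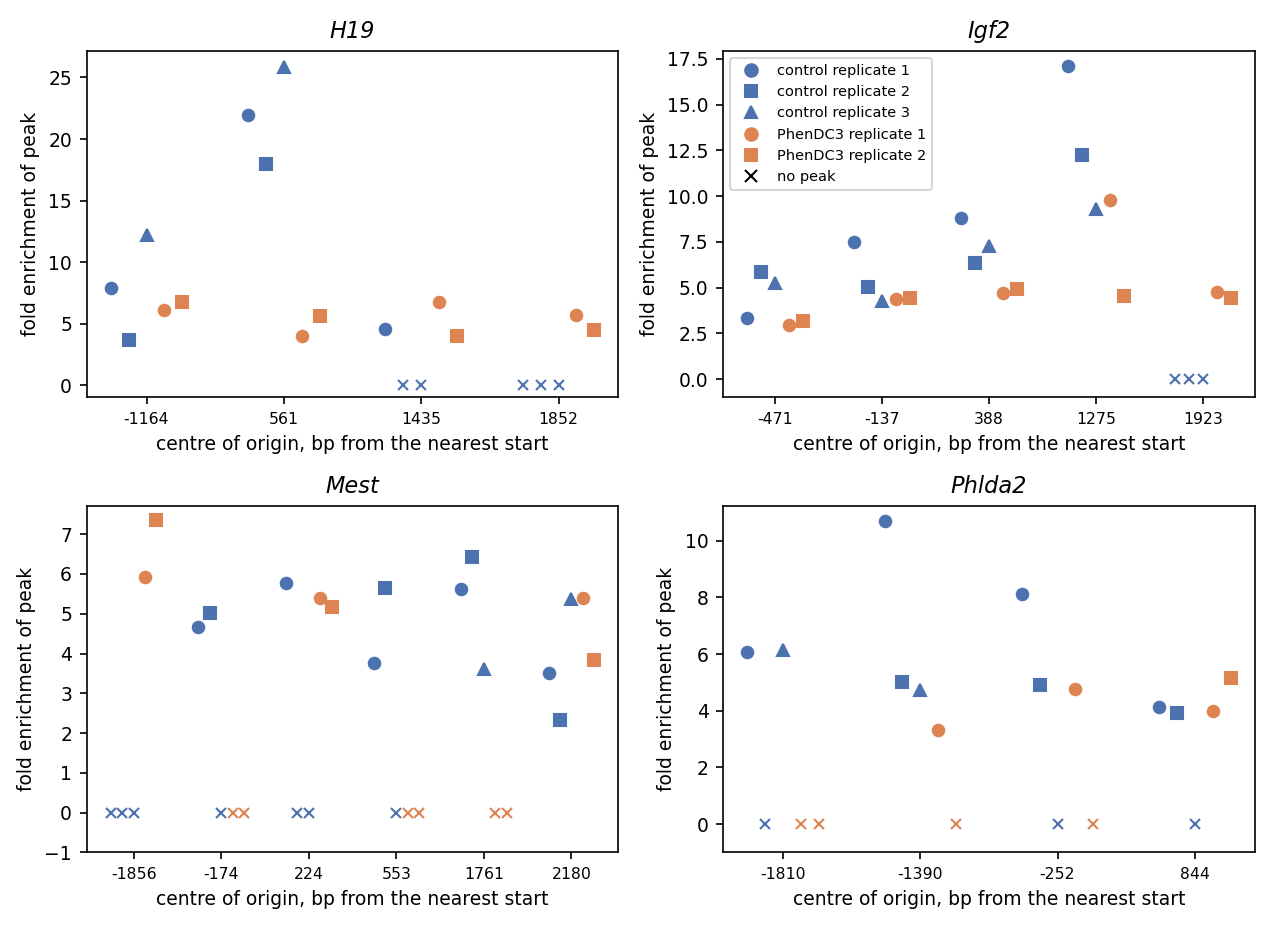
Peak fold enrichment at each origin near a start of H19, Igf2, Mest and Phlda2 for 3 control (blue) and 2 PhenDC3 (orange) lists, with crosses at 0 for no peak and origins ordered by the distance of their centre from the nearest start in bp. The H19 body origin at 561 bp shows controls of 17.95 to 25.9 and PhenDC3 values of 4.02 and 5.61.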

How the data were processed

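RNA-seq covered 3 control and 3 PhenDC3 samples, and SNS-seq 3 and 2. The authors deposited raw read counts per gene, made with TopHat2 2.1.1, Bowtie2 2.2.9 and HTSeq 0.6.1p1 after a stranded library kit; the annotation and strand setting of the counting are not given in the sources used here. They deposited SNS-seq peak lists from MACS2 2.1.0 on mm10, with fold enrichment (a ratio), -log10 p-values and scores, keeping MACS2 peaks that overlap SICER regions. One RNase-treated library per condition served as background and was not analysed here.

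Counts were tested with edgeR 4.0.16 in R 4.3.3 (quasi-likelihood, RLE normalization, filterByExpr). A trial on simulated data missed its first limit on how many changed genes were recovered, which was replaced after that result was seen, and many 2-fold changes went uncalled in it, so a gene that was not called is not shown to be unchanged. SE is the absolute log2 fold change divided by the root of the F statistic. Peaks of all lists were merged into regions, and starts came from RefSeq. The genes named were the members called, fixed domain genes and the 8 largest called changes of each further list. Dnmt1, Trim28 and the remaining called genes of the imprint control list were added after their values were seen. The members and lists were chosen with earlier results of these data known. Same-numbered samples correlated at 0.0945, 0.663 and 0.52, and numbers were not treated as pairs, although the column labels number such samples consecutively. Alternatives were TMM and library size scaling, other filters, DESeq2 1.42.0, each replicate left out and a replicate block.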

Additional observations from a re-analysis of the deposited data

How the results depend on the processing

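Of the 12 genes called, Zfp57 included, H19, Phlda2, Cd81, Mest, Grb10, Plagl1 and Nnat stayed called in the same direction in all 12 alternatives. Igf2 was lost only with the replicate block (edgeR adjusted p = 0.0886), and Cdkn1c, Peg10, Zfp57 and Zrsr1 were lost when single replicates were left out. Uncalled genes that passed under some alternative were Slc22a18, Magel2, Nespas, Ddc and Gab1, the last only with the replicate block. The replicate block gave 6 higher and 9 lower of 35 members, 3797 higher and 3692 lower of 13972 genes, and 19 imprint control genes against 12. The closeness of the members to the background was described for the main fit only. Replicates 2 and 3 correlated best with their own numbers across conditions (0.663 and 0.52). PhenDC3 replicate 1 was at 0.0945 with control replicate 1 and 0.1 with control replicate 3. Same-numbered control and PhenDC3 samples also carry consecutive numbers in the column labels. Both are hints of pairing, though the sources used here describe none, and the main fit ignored any pairing. Leaving out single replicates gave 4 to 6 higher and 4 to 7 lower members, 8 to 14 further imprinted genes and 9 to 14 imprint control genes. Genes with an origin near a start numbered 8 with PhenDC3 in the stronger part of each list, and 14 to 23 in the controls and 13 to 27 with PhenDC3 with single lists left out, the lowest control count being without control replicate 1 and the highest PhenDC3 count without PhenDC3 replicate 2; the cause was not tested.

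Signs turned only in 9 uncalled genes. Mirg was at -0.0067 with TMM and -0.0083 with the replicate block. With library size only, Tssc4 was at 0.15, Usp29 at 0.0794 and Gnas at 0.0018. With single replicates left out, the log2 fold changes ranged from -0.0897 to 0.43 for Meg3, -0.45 to 0.47 for Mirg, -0.22 to 0.76 for Peg3, -0.17 to 0.12 for Tssc4, -0.0321 to 0.18 for Igf2r, -0.32 to 0.31 for Ube3a, -0.0441 to 0.16 for Inpp5f and -0.28 to 0.0857 for Usp29. Depth limits Dlk1, Zim1, Magel2 and Nap1l5, which had at most 20 counts in any sample, and 3 replicates limit calls of small changes.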
